A study of Homo sapiens with 6 samples.

Results

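The genes described here are 32 genes whose promoters have repeatedly been reported as hypermethylated in prostate cancer. A gene of this list was taken as measured when the array annotation gave a feature its symbol and no other. By that rule 29 of the 32 were measured, out of 16704 genes in all. FHL1 and DAB2IP had no such feature and were not analysed here, and the feature of TNFRSF10C is shared with another gene, so its value was not used. The arrays measured cytoplasmic RNA of LNCaP, an androgen-responsive human prostate cancer line. The control group is 3 clones stably transfected with a scrambled short hairpin RNA, and the knockdown group is 3 clones stably transfected with a hairpin against MBD2. Both constructs are in the siLentGene-2 vector with selection for neomycin resistance, and each clone has 1 array. The p-values measure the spread between these clones, and differences that arose while clones were picked cannot be told apart from those of the hairpin.

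Cytosines followed by guanine (CpG) are the sites of DNA methylation in human cells, and CpG-dense stretches at gene starts, called CpG islands, are mostly unmethylated in normal tissue. In prostate cancer many islands gain methylation, often with loss of the transcript. MBD2 binds methylated CpG and recruits the NuRD complex, which removes histone acetylation and remodels nucleosomes, and so helps to keep methylated genes silent. The comparison asks which of them were silent or expressed in the control clones and which differed after knockdown. DNA methylation of these clones was not analysed here.

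MBD2 had log2 values of 8.73, 9.24 and 9.20 in control clones 1, 2 and 3 and 7.68, 7.84 and 7.81 in knockdown clones 1, 2 and 3, with no overlap. That is 41.2% of the control level, with a 95% interval of 32.6% to 52.0% (limma), and an exact two-sided permutation test gave p = 0.1, the smallest that 3 against 3 allows. Its adjusted p in limma was 0.111, so the targeted gene itself did not pass the threshold of 0.05, although it did without control clone 1 (0.0179) and without knockdown clone 1 (0.0498). Over all 16704 genes, 0 had an adjusted p under 0.05, and 1568 had an unadjusted p under 0.05. The luminal markers measured, KLK3, KLK2, KRT8, KRT18, EPCAM and HOXB13, had control means of 8.54 to 11.0. Of the stromal markers 6 of 10, and of the haematopoietic and endothelial markers 6 of 7, lay in the background range defined below. The exceptions were LCP1 (10.41) and the stromal genes COL1A1, ACTA2, COL3A1 and COL1A2.

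The value table holds no detection calls, so the background was read from the 212 measured olfactory receptor genes, a family that epithelial cells in culture seldom express. Their control means had a median of 3.46 and a 95th percentile of 4.91, and a gene at or below 4.91 is called in the background range here. Probes differ in brightness, so a gene in that range was not distinguishable from unexpressed genes, which does not show that it is silent. Of the 29 listed genes 15, or 51.7%, lay in the background range in the control clones, against 28.1% of all genes. These were the Wnt inhibitor SFRP2 and the Wnt ligand WNT5A, the retinoid genes RARRES1 and ALDH1A2, the estrogen receptors ESR1 and ESR2, the cyclin CCND2, the hyaluronan receptor CD44 and the hyaluronan-linking protein HAPLN3. The protease inhibitor TIMP3, the caveolae protein CAV1, the endothelin receptor EDNRB, the aldehyde oxidase AOX1, the peroxidase GPX3 and the monocarboxylate transporter SLC5A8 completed them. The 14 genes above the range were APC, SFRP1, DKK3, RARB, TNFRSF10D, CDKN2A, RASSF1, HIC1, KLF6, RUNX3, GAS6, PDLIM4, S100A6 and MGMT. HAPLN3 (control mean 4.90) lay just inside the limit, and PDLIM4 (5.00) and SFRP1 (5.06) lay just outside it. A control mean little above the limit does not show that a gene is expressed. The stromal markers COL3A1 (5.30) and COL1A2 (5.42) and the basal epithelial marker KRT14 (5.53) also lay above it. So did GSTP1 (5.39), another gene reported as hypermethylated in prostate cancer. S100A6 (5.47) and GAS6 (5.63) were at similar levels. With the 90th percentile of the olfactory receptor genes as the limit, 12 listed genes were in the range.

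**Figure D1:**
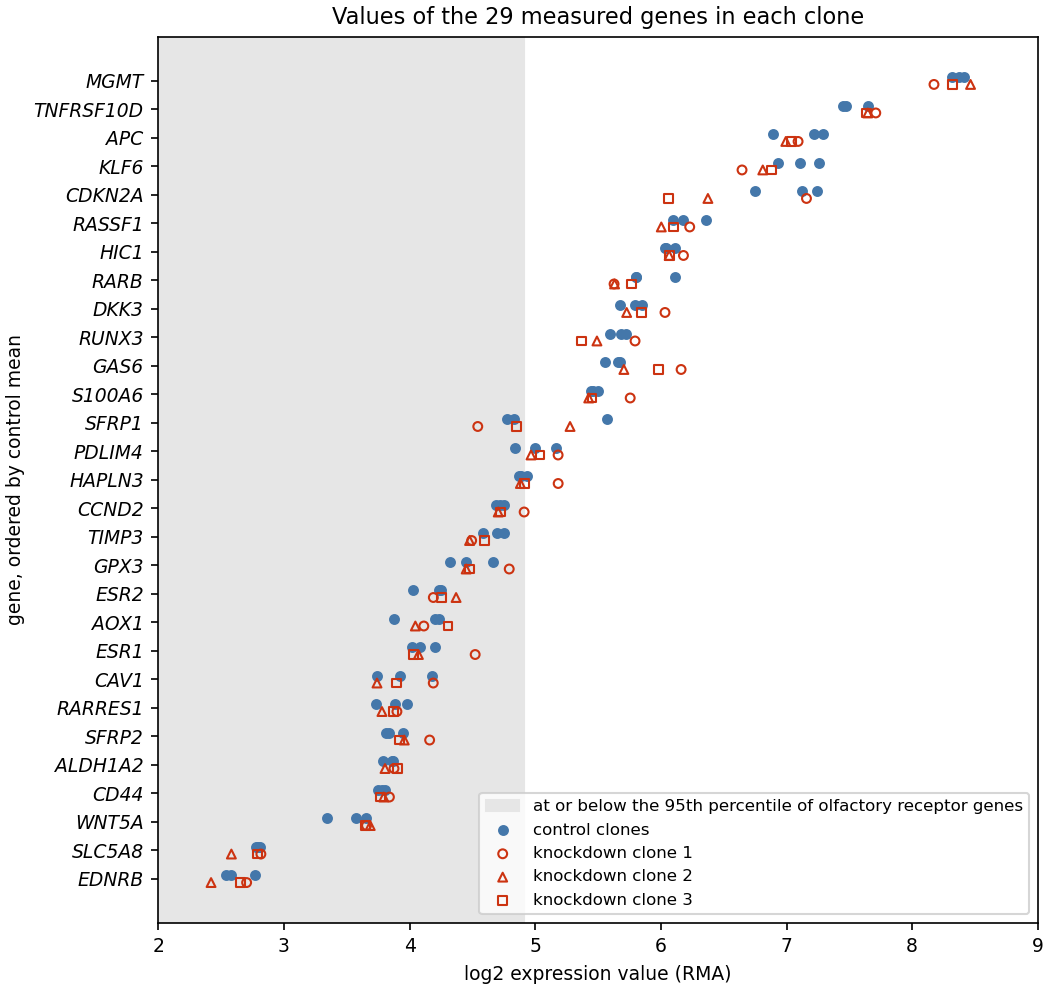
Log2 expression value (horizontal axis) of the 29 measured genes (vertical axis, ordered by control mean) in 3 control clones (filled circles) and 3 knockdown clones (open symbols, 1 shape per clone). Grey marks values at or below 4.91, the 95th percentile of olfactory receptor genes in the controls, where 15 of the genes have their control mean. KLF6, RARB and GAS6 are the genes whose groups do not overlap, and knockdown clones 2 and 3 stand apart in CDKN2A.

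The dim listed genes differed from other dim genes in the sequence at their starts. A RefSeq promoter window (250 bases before to 50 after the start, GRCh38.p14) was found for 24 of the 29 genes and for 13351 of all measured genes. The letters CG were counted in it, a motif that reads the same on both strands. Of the 14 listed genes in the background range with a window, 13 (92.9%) held 10 or more CpG, with a median of 20, while 44.9% of all 3580 genes in that range with a window did, with a median of 7. Among genes above the range the shares were 9 of 10 for the listed genes and 87.2% for all. At least 1 CpG was found in 98.4% of all windows. The list was drawn from reports of CpG island methylation, so its CpG content follows in part from how such genes are chosen, and no test was made. The windows with most CpG among listed genes in and above the background range, and the one with the fewest of all, are shown to give the extremes of what a methyl-CpG-binding protein could meet. They are the 250 bases upstream of the start, 5′ to 3′ on the gene's strand, with each CpG in capitals.
ALDH1A2: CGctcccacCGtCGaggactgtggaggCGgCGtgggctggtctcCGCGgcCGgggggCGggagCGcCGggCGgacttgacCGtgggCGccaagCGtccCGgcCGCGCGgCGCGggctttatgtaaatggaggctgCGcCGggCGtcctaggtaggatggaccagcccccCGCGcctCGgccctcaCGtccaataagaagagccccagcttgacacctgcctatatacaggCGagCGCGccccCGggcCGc
MGMT: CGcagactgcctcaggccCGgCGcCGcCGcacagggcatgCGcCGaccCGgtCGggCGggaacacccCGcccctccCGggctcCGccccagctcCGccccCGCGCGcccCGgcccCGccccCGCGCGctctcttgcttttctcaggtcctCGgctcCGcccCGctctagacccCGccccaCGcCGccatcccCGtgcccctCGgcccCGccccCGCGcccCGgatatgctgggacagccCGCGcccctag
ESR1: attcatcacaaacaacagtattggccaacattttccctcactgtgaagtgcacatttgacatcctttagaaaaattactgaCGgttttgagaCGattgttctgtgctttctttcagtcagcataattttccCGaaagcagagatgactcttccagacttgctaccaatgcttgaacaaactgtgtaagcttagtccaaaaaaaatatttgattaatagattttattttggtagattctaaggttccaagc
The ALDH1A2 stretch (chr15:58065712-58065961, minus strand) holds 33 CpG and belongs to a gene in the background range that makes retinoic acid from retinal. The MGMT stretch (chr10:129466991-129467240, plus strand) holds 36 CpG and belongs to a DNA repair gene well above the range. The ESR1 stretch (chr6:151656422-151656671, plus strand) holds 3. Only 1 start per gene was available, and genes such as ESR1 and RARB are transcribed from several. The window of any listed gene therefore need not be the promoter studied in prostate cancer. This limit also holds for the shares of windows with 10 or more CpG.

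**Figure D2:**
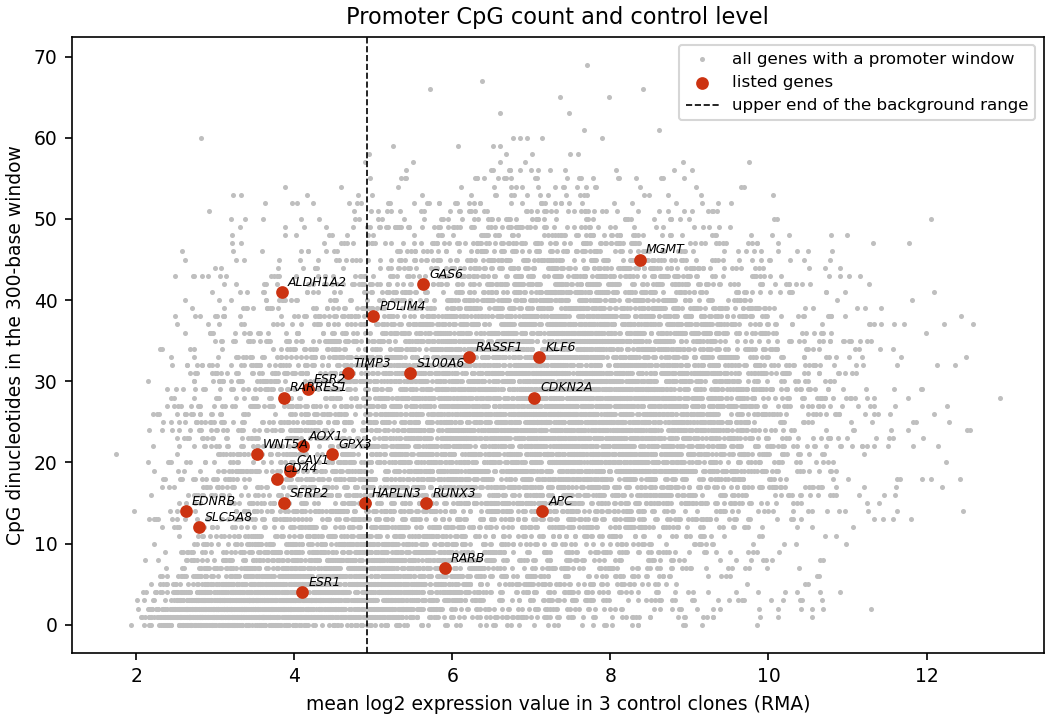
Number of CpG dinucleotides in the 300-base promoter window (vertical axis) against the mean log2 value in the 3 control clones (horizontal axis). Grey points are 13351 measured genes, red points are the 24 listed genes with a window, and the dashed line at 4.91 is the upper end of the background range. Of the 14 listed genes left of the line, all but ESR1 have 10 or more CpG.

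After MBD2 knockdown 0 of the 29 genes had an adjusted p under 0.05 in limma, as for all genes (0% called). The smallest adjusted p was 0.435, that of KLF6. At an unadjusted p under 0.05 there were 2, or 6.9% of the listed genes, against 9.39% of all genes. They were KLF6 as lower (5.45% of all genes were called in that direction) and GAS6 as higher (3.93%). The groups did not overlap in 3 genes (10.3%), against 15.4% of all genes. KLF6 and RARB were the lower ones (8.87% of all genes) and GAS6 the higher one (6.57%). The median log2 fold change was 0.024 (16 positive, 13 negative), and that of all genes was -0.004. These shares lie near or under the background of the whole array, but the list holds more dim genes, which were called less often. Among the 14 listed genes above the background range 14.29% had an unadjusted p under 0.05 (limma), against 10.79% of all such genes. Their groups did not overlap in 21.4%, against 17.5%. Among the 15 in the range both shares were 0%, against 5.81% and 10.2% of all such genes. The estimates bound what the genes could have done: the upper end of the 95% interval lay below a 2-fold increase in all 29 and below a 1.5-fold increase in all but GAS6, where it was 0.61 on the log2 scale. The lower end lay above a 2-fold decrease in all but CDKN2A (-1.14). These intervals are on the scale of RMA values, where changes of dim features are compressed.

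**Figure D3:**
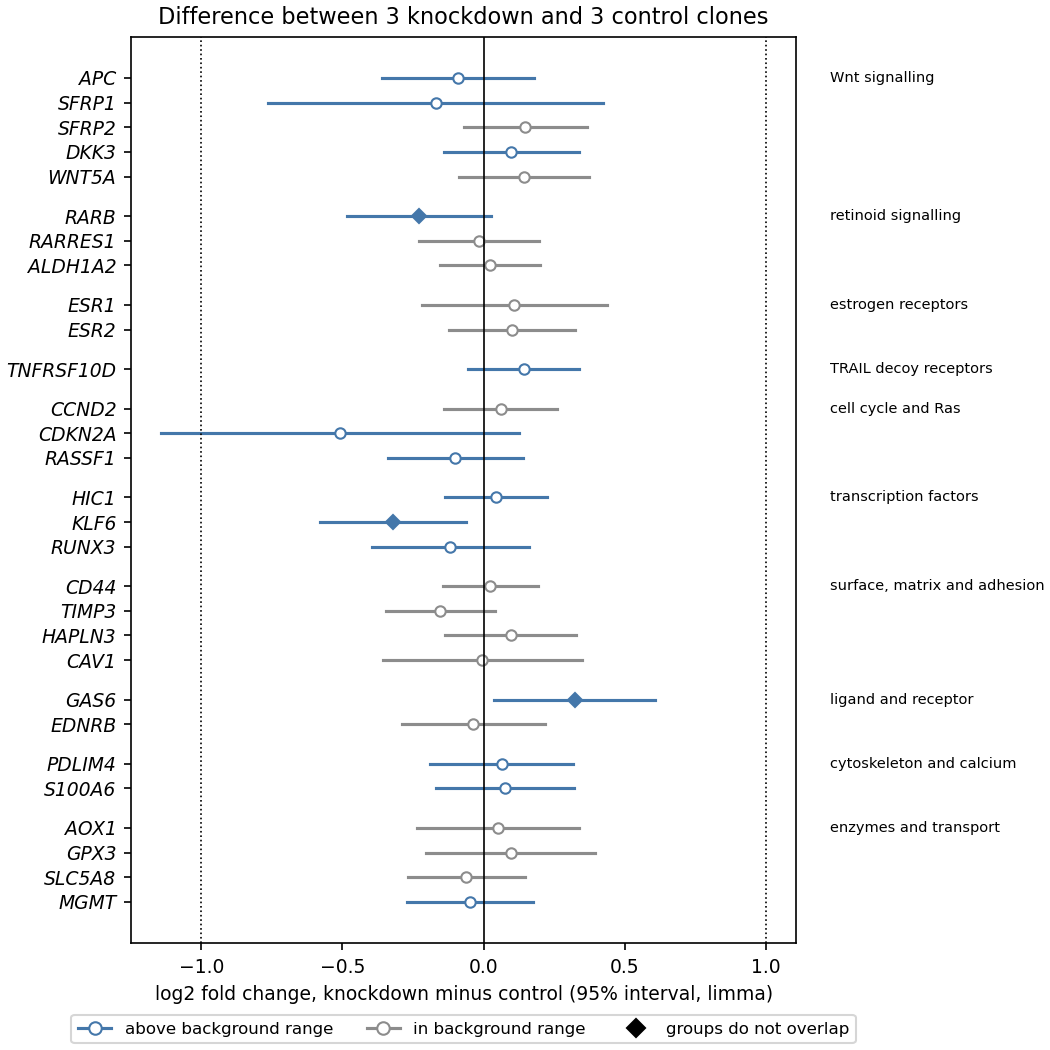
Log2 fold change, knockdown minus control, with its 95% interval from limma (horizontal axis), for 29 genes grouped by role (3 clones per group). Blue marks genes above the background range in the controls, grey those in it, diamonds genes whose groups do not overlap, and dotted lines 2-fold differences. The intervals lie between both dotted lines for all genes but CDKN2A.

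The 15 genes in the background range stayed close to their control values. Their log2 fold changes lay between -0.15 (TIMP3) and 0.15 (SFRP2), with a median of 0.050 and 10 of 15 positive. The same median over all 4698 genes in that range was 0.033, with 62.2% positive, so a small positive lean was shared by dim genes at large. The groups overlapped in all 15 (10.2% of all dim genes did not overlap), and the highest upper bound of the 15 intervals was 0.44, that of ESR1. SFRP2, a secreted protein that captures Wnt ligands, had 3.81, 3.95 and 3.83 in control clones 1, 2 and 3 and 4.16, 3.96 and 3.92 in knockdown clones 1, 2 and 3. WNT5A, a ligand of non-canonical Wnt signalling, had 3.65, 3.34 and 3.57 in the controls and 3.66, 3.69 and 3.65 in the knockdown clones. In SFRP2 knockdown clone 3 lay below control clone 2, and in WNT5A the groups met at 3.65, so both overlapped. For CD44, ALDH1A2 and CAV1 the log2 fold changes were 0.02, 0.02 and -0.004.

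Among the Wnt genes above the range, APC, the scaffold of the complex that degrades beta-catenin, had 6.89, 7.29 and 7.22 in control clones 1, 2 and 3 and 7.09, 6.99 and 7.04 after knockdown, a log2 fold change of -0.09 with an SE of 0.12. All 3 knockdown values fell inside the range of the controls. DKK3, a secreted protein of the dickkopf family, had a log2 fold change of 0.10. A dimmer feature of DKK3 gave -0.17, so its direction is not settled. SFRP1, a secreted Wnt inhibitor, varied within both groups, with 5.57, 4.83 and 4.78 in the controls and 4.54, 5.28 and 4.85 in the knockdown clones. It spanned 1.03 log2 units over the 6 clones, against a median span of 0.347 for the listed genes and 0.366 for all genes, and it is singled out after its values were seen. Control clone 1 and knockdown clone 2 were high and the others near the background limit, and the log2 fold change was -0.17 (SE 0.25).

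Other genes of Wnt signalling were read from a list of antagonists, receptors and core components. Of 25 measured, 0 had an adjusted p under 0.05, and 5 (20.0%, against 15.4% of all genes) had groups that did not overlap, 3 higher and 2 lower. The co-receptor LRP6 had a log2 fold change of 0.32 (adjusted p = 0.315, limma) and the receptors FZD4 and FZD6 had 0.43 and -0.26. The median of the 25 genes was 0.033.

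In retinoid signalling, RARB, a nuclear receptor for retinoic acid, had 5.80, 5.80 and 6.11 in control clones 1, 2 and 3 and 5.63, 5.63 and 5.77 in knockdown clones 1, 2 and 3. All knockdown clones lay below all controls, by little, and the log2 fold change was -0.23 (SE 0.11, adjusted p = 0.575 in limma). Without control clone 3, the highest, it was -0.12. RARRES1, named for its induction by retinoids, and ALDH1A2 had log2 fold changes of -0.02 and 0.02. Of 13 measured other retinoid genes 6 lay in the background range, where 62.2% of all genes were positive. Of the 13 genes 10 were positive (76.9%, against 48.7% of all genes), with a median of 0.083 and 0 past the threshold. The 1 gene whose groups did not overlap (7.7%, against 15.4% of all genes) was DHRS3, an enzyme that reduces retinal, at 0.42 (adjusted p = 0.433 in limma).

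TNFRSF10D, a decoy receptor that binds the death ligand TRAIL without a full signalling domain, had 7.65, 7.48 and 7.45 in control clones 1, 2 and 3 and 7.71, 7.65 and 7.64 after knockdown, a log2 fold change of 0.14 with an SE of 0.08. Control clone 1 lay among the knockdown values, so the groups overlapped. The receptors that do signal death, TNFRSF10A and TNFRSF10B, had -0.28 and -0.17, with adjusted p of 0.398 and 0.555 in limma. In each all knockdown clones lay below all controls, as in 8.87% of all genes. These receptors resemble each other in sequence, which makes the source of single probes uncertain. Of 9 measured other genes of the TRAIL pathway 6 were negative, with a median of -0.096, and 0 passed. The positive share was 33.3%, against 48.7% of all genes and 43.5% of all genes above the background range, where 7 of the 9 lay. The groups did not overlap in 22.2% of the 9, which are TNFRSF10A and TNFRSF10B, against 15.4% of all genes.

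Among genes of the cell cycle and of Ras signalling, CDKN2A had the largest difference of the list. It encodes the cyclin-dependent kinase inhibitor p16 and the p53 activator ARF, which its feature (8160441) does not separate. Its values were 6.75, 7.12 and 7.24 in control clones 1, 2 and 3 and 7.16, 6.37 and 6.06 in knockdown clones 1, 2 and 3. Knockdown clones 2 and 3 were below every control while clone 1 lay within them. The log2 fold change was -0.51 (SE 0.27, 95% interval -1.14 to 0.13, adjusted p = 0.626 in limma). Without knockdown clone 1 it was -0.82 (adjusted p = 0.0912), and without knockdown clone 3 it was -0.27. RASSF1, a scaffold protein that binds Ras-family proteins, had -0.10, and its feature does not single out the isoform whose promoter is best known for methylation. CCND2, a D-type cyclin in the background range, had 0.06.

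KLF6, a zinc finger transcription factor, had 7.26, 6.93 and 7.11 in control clones 1, 2 and 3 and 6.65, 6.81 and 6.88 in knockdown clones 1, 2 and 3. The highest knockdown value lay just under the lowest control value. Its log2 fold change was -0.32 (SE 0.11), 1.25-fold lower, and its adjusted p in limma lay between 0.172 and 0.758 over the alternatives tried. HIC1, a transcriptional repressor, had 0.04. RUNX3, a Runt-domain factor, had -0.12. Its values were 5.60, 5.69 and 5.72 in the controls and 5.79, 5.49 and 5.37 after knockdown. Clones 2 and 3, the most alike pair over all genes, were again below every control and clone 1 above them.

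GAS6, a secreted ligand of the TAM receptor tyrosine kinases, had 5.67, 5.56 and 5.65 in control clones 1, 2 and 3 and 6.16, 5.71 and 5.98 in knockdown clones 1, 2 and 3. Clone 2 lay just above the highest control and clones 1 and 3 clearly above it. The log2 fold change was 0.32 (SE 0.12), 1.25-fold higher, with an adjusted p of 0.476 in limma. Without knockdown clone 1 it was 0.22. The adaptor PDLIM4 and the calcium-binding protein S100A6 had 0.06 and 0.08, and the receptor EDNRB had -0.04.

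MGMT, which removes alkyl groups from guanine in DNA, had 8.38, 8.32 and 8.41 in control clones 1, 2 and 3 and 8.17, 8.46 and 8.32 after knockdown, a log2 fold change of -0.05 with an SE of 0.10. The knockdown values spread to either side of the controls. AOX1, GPX3 and SLC5A8, all in the background range, had 0.05, 0.10 and -0.06.

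Knockdown clone 1 differed from the others in these genes. It lay above all 3 controls in 17 of 29 genes (58.6%, against 37.3% of all genes) and below them in 5 (17.2%, against 27.9%). Clone 2 lay above in 6 (20.7%, against 23.1% of all genes) and below in 9 (31.0%, against 31.2%). Clone 3 lay above in 4 (13.8%, against 24.9%) and below in 4 (13.8%, against 34.3%). Dim genes as a class lay high in clone 1: 52.9% of all genes in the background range were above all controls there, against 23.2% in clone 2 and 24.9% in clone 3, and among the listed genes in that range the counts were 10, 3 and 3 of 15. The listed genes above the range also lay high in clone 1, where 7 of 14 were above all controls, against 31.3% of all such genes. In clones 2 and 3 the counts were 3 and 1 of 14, against 23.1% and 25%. The median deviation of the listed genes from the control mean was 0.12 in clone 1, -0.03 in clone 2 and -0.0001 in clone 3. Over all genes it was 0.03, -0.02 and -0.03. Without knockdown clone 1 the median log2 fold change of the list was -0.006, with 14 of 29 positive.

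**Figure D4:**
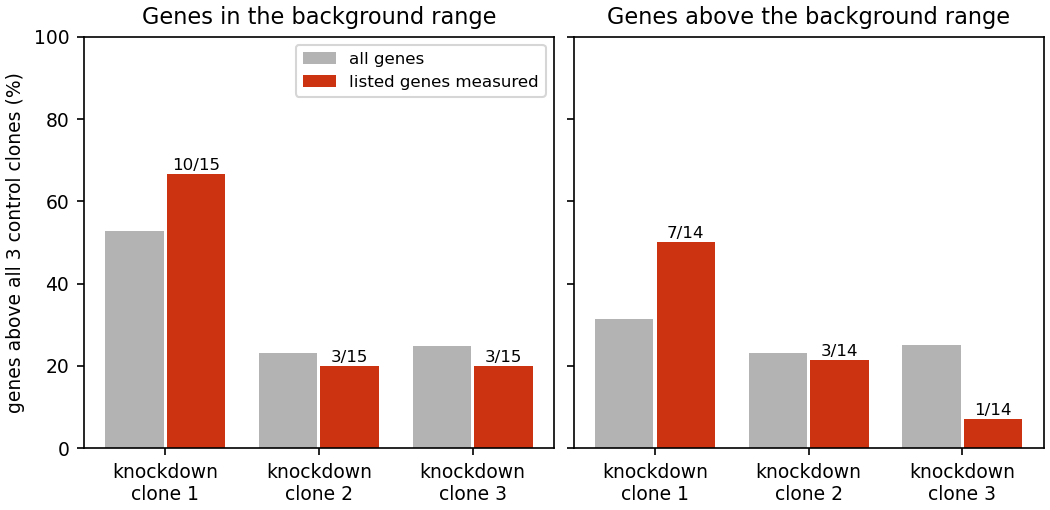
Share of genes (vertical axis, percent) whose value in a knockdown clone lies above all 3 control clones, for genes in the background range (left) and above it (right). Grey bars are all genes and red bars the listed genes, with their counts. In clone 1 the grey bar for dim genes reaches 52.9%, against 23.2% and 24.9% in clones 2 and 3.

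A further 36 genes with reports of hypermethylation in prostate cancer, of which 29 were measured, were read in the same way. Of these 15 were in the background range, where 62.2% of all genes had a positive log2 fold change. It was positive in 17 of the 29 (58.6%, against 48.7% of all genes). The median was 0.077, and 0 passed the threshold. The largest differences were those of LXN (-1.53), LPL (0.59) and MT1G (-0.52), with adjusted p of 0.562, 0.578 and 0.519 in limma. The groups overlapped in each of them. The groups did not overlap in 2 genes (6.9%, against 15.4% of all genes), the laminin chain LAMB3 (0.40, adjusted p = 0.341 in limma) and the galectin LGALS3 (0.16), both as higher. LAMB3 is also a basal epithelial marker, and 3 of 5 measured basal markers, LAMB3, KRT15 and KRT5, had groups that did not overlap, all as higher and all with control means in the background range, where 10.2% of all genes did not overlap. The other markers, KRT14 (0.18) and ITGB4 (-0.00004), overlapped, and TP63 was not analysed here. The mean log2 value of the 4 basal markers other than LAMB3 lay between 4.78 and 4.90 in the control clones. In the knockdown clones it lay between 5.01 and 5.05. This mean includes KRT15 and KRT5, named above because their groups did not overlap, so it in part repeats their separation. The part of these markers in the LAMB3 difference was not tested. Whether a fraction of cells or all cells carried such differences cannot be told apart in RNA of whole cultures.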

How the data were processed

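Per the labels' protocols, Trizol was used to isolate cytoplasmic RNA, which was labelled with biotin for Affymetrix HuGene arrays, 1 for each of the 6 clones. The deposited table holds log2 values per feature made by the authors with RMA (background correction, normalization between arrays, summary of probes). The submitters' processing notes name RMA with the packages oligo and limma, and no version or filter is stated there. The log2 scale was taken from RMA and the range of the values. No further normalization was applied.

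Of 19712 features 17334 have 1 gene symbol, and 16704 genes remained after the brightest feature of each gene was taken. Knockdown was compared with control over all of them with lmFit and eBayes of limma 3.58.1 (R 4.3.3), without covariates. Adjusted p-values are Benjamini-Hochberg values computed on the whole set of genes. No dim gene was left out. Intervals are 95% intervals of that fit. The fit was also run on simulated data with independent errors. That checks the calculation and does not measure what the fit can detect in these clones. Promoter CpG was counted in Python 3.11.15 in RefSeq windows matched by symbol.

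Each clone's values are given for genes whose groups do not overlap, the 3 largest log2 fold changes in each direction and the 4 highest control means. Of each pathway list up to 3 genes whose groups do not overlap are named, with their log2 fold changes. SFRP1, RUNX3, LXN, LPL, MT1G and THBS1 are given beyond that rule, chosen after their values were seen. The listed genes, pathway lists and tests were chosen with earlier results of these data known. The labels do not say whether the replicate numbers pair the clones, and the main fit used no pairing. Deviations of same-numbered clones from their group means correlated at -0.0252, -0.189 and 0.174. Those of differently numbered clones correlated at -0.165 to 0.218, so the values do not settle the question. The number of arrays limits the precision.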

Additional observations from a re-analysis of the deposited data

How the results depend on the processing

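The count of listed genes past the adjusted threshold was 0 under all 14 alternatives, and the smallest adjusted p of a listed gene was 0.0698 (CDKN2A with array weights, where knockdown clone 1 weighed 0.252). Over all genes the count was 325 with array weights, 70 without knockdown clone 1 and 7 without control clone 1. It was 1 after quantile normalization and 0 under the other alternatives. Listed genes with an unadjusted p under 0.05 numbered 5 with array weights, where 19.9% of all genes did, and 0 to 2 when 1 clone was left out: 0 without control clone 1 or 3, 1 without control clone 2 or knockdown clone 3. With 1 clone left out the share of all genes was 6.51% to 16%. Listed genes whose groups do not overlap numbered 5 after quantile normalization (15.1% of all genes) and 5 with knockdown clones 2 and 3 averaged (22.1%). They numbered 4 to 7 when 1 clone was left out, where fewer values make separation easier (22.9% to 35.1% of all genes). KLF6, RARB and GAS6 were among them each time. Where clones were left out or averaged this was fixed in advance, because their groups already did not overlap with all clones present. With the replicate number as a block 3 listed genes had an unadjusted p under 0.05 (9.43% of all genes) and 0 passed. The median log2 fold change was -0.0695 without the dimmest 30% of genes, which left 12 of the 29, and -0.0058 to 0.0524 when 1 clone was left out. The MBD2 difference was -1.27 with array weights (adjusted p = 0.0138) and -1.45 to -1.19 when 1 clone was left out (0.0179 to 0.458). The count in the background range was 12 to 15.

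The direction of KLF6, RARB and GAS6 could not change when clones were left out or averaged, since their groups do not overlap. Of the 29 genes 14 kept their direction throughout, among them KLF6, RARB, GAS6, CDKN2A, APC, RUNX3, SFRP2, WNT5A, TIMP3 and TNFRSF10D. Their sizes were less stable: when 1 clone was left out APC ranged from -0.21 to -0.014, RUNX3 from -0.24 to -0.027, WNT5A from 0.052 to 0.21, SFRP2 from 0.074 to 0.19, RARB from -0.28 to -0.12 and CDKN2A from -0.82 to -0.27. With array weights SFRP1 was 0.14, MGMT 0.059, ALDH1A2 -0.011, ESR1 -0.0076, CCND2 -0.0055, S100A6 -0.014 and AOX1 -0.012. After quantile normalization ALDH1A2 was -0.0032 and CD44 -0.00050. With features averaged DKK3 was -0.038, and with knockdown clones 2 and 3 averaged CAV1 was 0.057. When 1 clone was left out SFRP1 ranged from -0.36 to 0.087, CAV1 from -0.13 to 0.11, AOX1 from -0.065 to 0.11, RARRES1 from -0.083 to 0.039, EDNRB from -0.091 to 0.050, ALDH1A2 from -0.0012 to 0.052 and ESR1 from -0.048 to 0.20. CCND2 ranged from -0.0058 to 0.097, PDLIM4 from -0.018 to 0.15, S100A6 from -0.030 to 0.14, GPX3 from -0.015 to 0.19, SLC5A8 from -0.10 to 0.013 and MGMT from -0.12 to 0.025. The cause of these changes was not tested. None of these genes passed in any fit.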

Other observations

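LXN, a carboxypeptidase inhibitor of the second hypermethylation list, differed among the control clones, and its values are given because of that. It had log2 values of 2.76, 4.25 and 6.01 in control clones 1, 2 and 3 and 3.05, 2.66 and 2.73 in knockdown clones 1, 2 and 3. Control clone 3 was high and lay above the background range. Control clone 2 lay inside that range but above all knockdown clones. THBS1, which encodes the matrix protein thrombospondin 1, spread widely in both groups, with 7.71, 8.02 and 9.97 in the controls and 6.27, 9.20 and 10.26 in the knockdown clones, and its log2 fold change was 0.01 with an SE of 1.02.

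Genes beside CDKN2A were read after its values had been seen. CDKN2A-AS1 had 5.33, 5.23 and 5.10 in control clones 1, 2 and 3 and 5.16, 4.86 and 4.84 in knockdown clones 1, 2 and 3. Knockdown clones 2 and 3, the most alike pair over all genes, were again lowest. CDKN2B, the kinase inhibitor gene next to CDKN2A, had 6.34, 6.57 and 6.50 in the controls and 6.40, 6.36 and 6.37 in the knockdown clones, and MTAP, an enzyme gene of the same region, had 7.20, 7.27 and 7.23 against 7.32, 7.18 and 7.11. In CDKN2B the groups overlapped, and in MTAP clones 2 and 3 lay below the controls by far less than in CDKN2A.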
